A study of Homo sapiens with 6 samples.

Results

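The genes described here are 10 targets of the transcriptional coactivator YAP and the TEAD factors, chosen by symbol: CCN1, CCN2, ANKRD1, AMOTL1, AMOTL2, LATS2, AJUBA, F3, CRIM1 and IGFBP3. Of these 10 genes, 9 had a named probe set among the 17687 named genes, with 1 probe set each, and AMOTL2 was not analysed here. Their RNA was measured on 6 arrays of A431 cells, an established line from a human epidermoid carcinoma that is known for abundant EGFR, the receptor of epidermal growth factor. The 3 groups held 2 arrays each, and all cells were grown with 10% serum and then starved for 24 h, with no word in the labels on serum during that time. The EGF plus gefitinib group received 100 ng/ml EGF, the ligand of EGFR, together with gefitinib (10 µM), which blocks the kinase of EGFR. The EGF group received the same dose of EGF alone, and the control group was not treated. Cells were harvested at 30 min by the labels, which leave the order of the additions unstated. There was no group with gefitinib alone. All results come from 1 cell line. Replicates are named biological in the labels, without word of separate cultures, so the p-values reflect only how far these samples spread, and that spread may be technical.

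YAP and its paralog TAZ (the product of WWTR1) are coactivators that reach DNA mainly through the TEAD transcription factors. The Hippo kinases, ending in LATS1 and LATS2, phosphorylate YAP and TAZ and keep them in the cytoplasm, and several targets of YAP act back on this cascade. In epithelial cells the pathway responds to cell density, adhesion, actin tension and growth factors. YAP and TEAD often occupy DNA next to AP-1, the FOS and JUN factor that growth factor signalling induces, and CCN1, CCN2 and ANKRD1 are also targets of the actin-responsive factor SRF.

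Promoter sequence is shown for 4 members, F3 and AJUBA because they changed in both EGF and gefitinib comparisons in opposite directions, and CCN2 and ANKRD1 because they are standard YAP targets that were dim in these cells. Of the 10 members, 8 had an entry among the RefSeq promoter sequences (build GRCh38.p14), and CCN1 and CRIM1 had none. Each window holds the 250 bases before an annotated transcript start, printed 5′ to 3′ on the strand of the gene. The letters searched were the TEAD core GGAATG, with its reverse complement CATTCC, and the AP-1 letters TGANTCA, which read alike on both strands. Capitals mark every match, and no match of one motif overlapped a match of the other. The windows lie at chr1:94541760-94542009 for F3, chr14:22976843-22977092 for the first of 2 AJUBA windows, chr6:131951373-131951622 for CCN2 and chr10:90921088-90921337 for ANKRD1, all on the minus strand.
F3: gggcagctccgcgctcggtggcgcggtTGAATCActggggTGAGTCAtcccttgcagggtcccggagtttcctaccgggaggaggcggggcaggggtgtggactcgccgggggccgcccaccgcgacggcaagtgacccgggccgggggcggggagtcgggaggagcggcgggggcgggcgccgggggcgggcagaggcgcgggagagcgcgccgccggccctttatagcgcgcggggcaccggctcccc
AJUBA: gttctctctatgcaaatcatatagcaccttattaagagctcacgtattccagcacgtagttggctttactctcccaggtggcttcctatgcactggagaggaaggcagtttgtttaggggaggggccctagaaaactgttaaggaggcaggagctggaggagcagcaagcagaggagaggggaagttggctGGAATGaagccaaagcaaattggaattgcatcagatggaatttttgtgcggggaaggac
CCN2: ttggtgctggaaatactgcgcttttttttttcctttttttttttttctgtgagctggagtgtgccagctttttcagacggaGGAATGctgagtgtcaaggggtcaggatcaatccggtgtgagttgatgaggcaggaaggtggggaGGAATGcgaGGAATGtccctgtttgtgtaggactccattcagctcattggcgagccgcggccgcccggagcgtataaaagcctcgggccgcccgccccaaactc
ANKRD1: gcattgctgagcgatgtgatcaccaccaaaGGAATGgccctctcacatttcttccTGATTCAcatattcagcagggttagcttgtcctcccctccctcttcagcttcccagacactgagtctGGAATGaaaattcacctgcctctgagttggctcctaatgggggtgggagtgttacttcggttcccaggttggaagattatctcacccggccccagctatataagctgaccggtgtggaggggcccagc

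The CCN2 window held 3 copies of the TEAD core, the most of any member with a window, beginning 169, 104 and 95 bases before the start. The ANKRD1 window held 2 copies, at 220 and 128 bases, and between them an AP-1 match at 195 bases. In the AJUBA window shown, the core occurred in 1 place, 59 bases before the start, and the other AJUBA window held neither motif. The F3 window had no TEAD core and 2 AP-1 matches, at 223 and 210 bases. AMOTL2, which has no array value here, had the core as CATTCC in 1 of its windows, 69 bases before the start. The windows of AMOTL1, LATS2 and IGFBP3 held neither motif. Over all 35116 windows of this length, 11.9% held the TEAD core and 6.57% the AP-1 letters. These matches are letters in a short window and say nothing of binding.

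**Figure D1:**
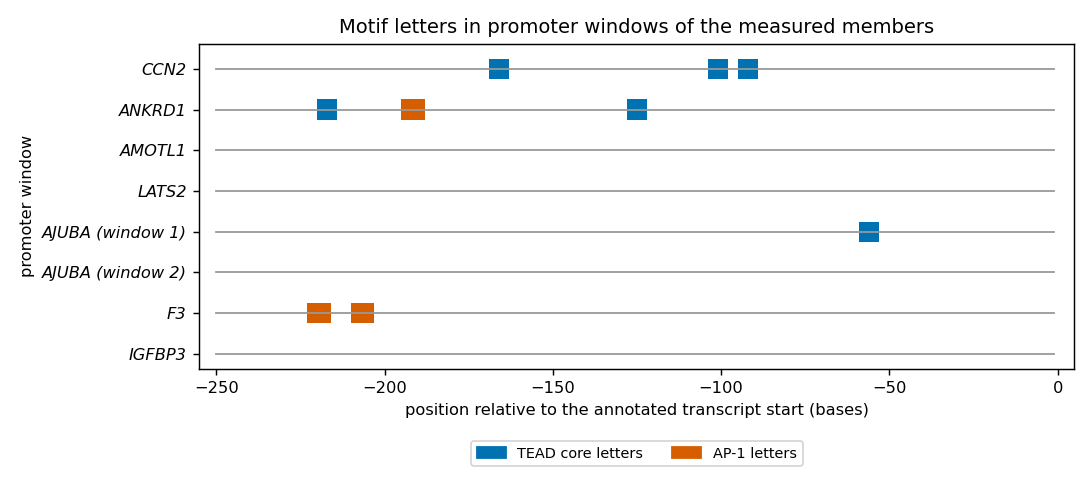
Positions of the TEAD core letters (blue) and the AP-1 letters (orange) in the 250 bases before the annotated transcript start of the measured members with a promoter entry. The horizontal axis gives bases relative to the start. CCN2 has 3 TEAD cores, ANKRD1 has 2 with an AP-1 match between them, and F3 has 2 AP-1 matches and no TEAD core.

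The values are log2 levels, and the arrays were closely alike. Across probe sets, the correlation within groups was 0.991 to 0.994, against 0.973 to 0.987 for arrays of different groups. On single arrays 38.4% to 42.1% of the 21448 transcript probe sets lay above the background limit, which is the 95th percentile of the negative controls of that array (7.14 to 7.65). The 7 measured epithelial markers, KRT5, KRT14, KRT8, KRT18, EPCAM, CDH1 and EGFR, lay above it on every array. Of 9 measured endothelial and leukocyte markers, 8 lay at or below it on every array. Of 6 fibroblast markers, LUM was above the limit on all arrays and COL1A2 on both control arrays alone.

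In the cells treated with EGF, compared with untreated control cells, called members lay in both directions. F3 rose 7.0-fold and CCN1 2.76-fold, while IGFBP3 fell 2.42-fold and AJUBA 2.09-fold. CCN2 and ANKRD1 lay in the background range in every group. In such bulk RNA, fewer cells of a type and less RNA per cell cannot be told apart. Of the 9 measured members, 2 rose and 2 fell in the limma fit (adjusted p under 0.05), which is 44.4%, against 11.9% of all probe sets (6.61% higher and 5.3% lower). Among probe sets with a mean above the mean limit the background share was 22.5%, and 4 of the 6 such members were called. The members were chosen with earlier results of these data known, so the shares here and below are descriptions and no test. The median log2 difference of the 9 members was 0.31, beside −0.03 over all probe sets. That median is the value of CCN2, which lay below the limit on all 6 arrays.

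Gefitinib with EGF, set against EGF alone, moved F3 and AJUBA the opposite way. Here 1 member rose and 1 fell of 9, or 22.2%, close to the 18.7% of all probe sets called (8.86% higher and 9.81% lower). Of the 6 members with a mean above the mean limit 2 were called, beside 34.9% of such probe sets. The median log2 difference of the members was 0.45, beside 0.05 over all probe sets. Against the control, the cells with EGF plus gefitinib had 2 members higher (F3 and CCN1) and 0 lower, or 22.2% against 3.89% of all probe sets (2.19% higher and 1.7% lower). Both are among the 6 brighter members, where the background share was 7.17%. LATS2, CRIM1 and IGFBP3 had adjusted p-values of 0.0659, 0.0586 and 0.0662 in that comparison and were not called. At an unadjusted p under 0.05, 6 of the 9 members differed there, beside 4457 of the 21448 probe sets. Each pair of comparisons shares the arrays of 1 group, so their results are not independent of each other.

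**Figure D2:**
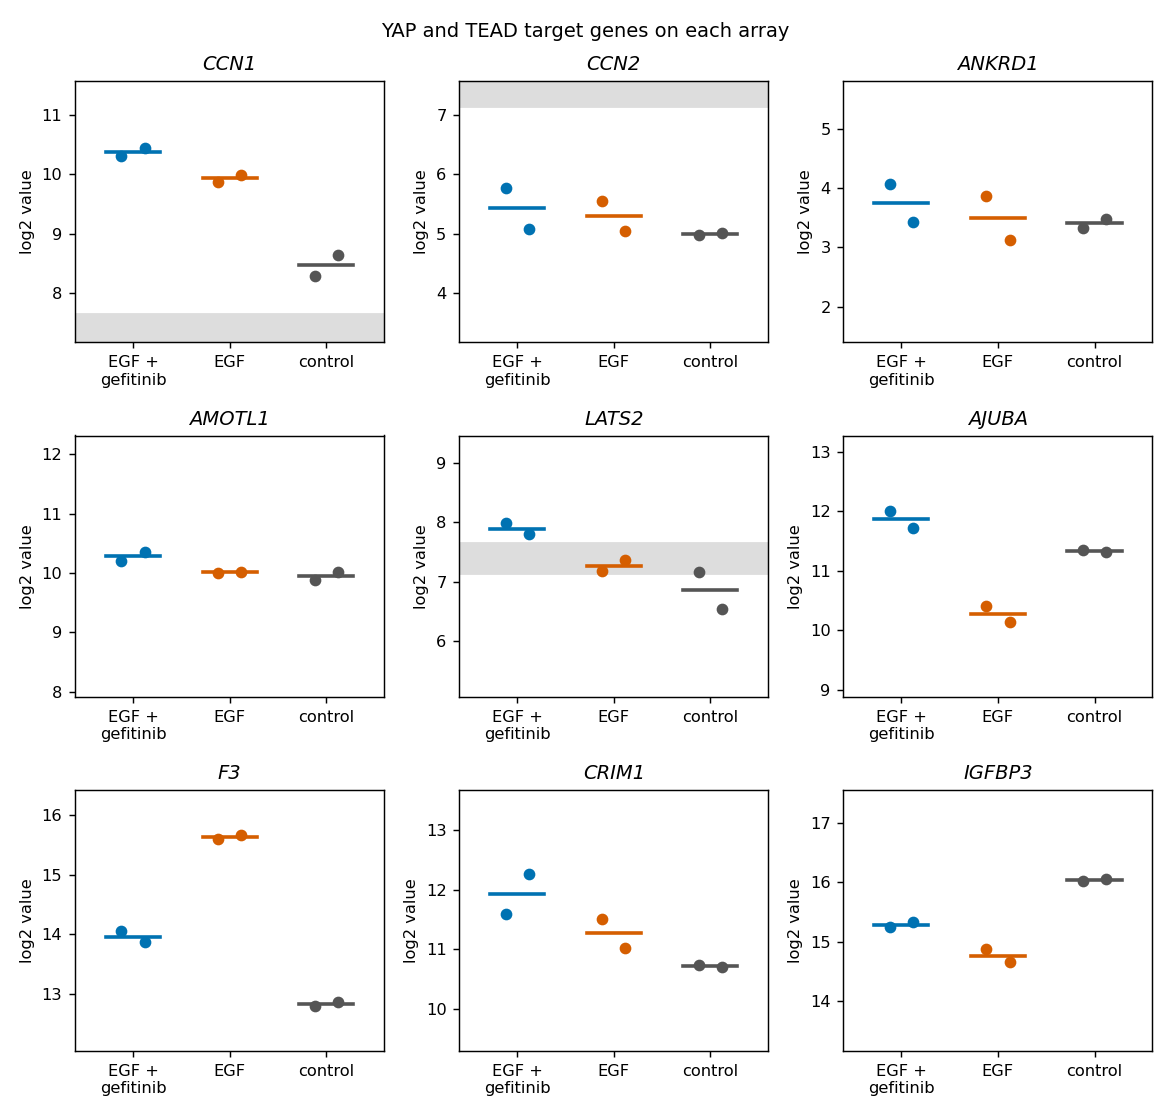
Log2 level of the 9 measured members on each array (points) with the group mean (bars), for EGF plus gefitinib, EGF and control from left to right. Every panel spans the same range of log2 units, and the grey band is the range of the background limits (7.14 to 7.65). F3 is highest with EGF and AJUBA lowest, CCN1 is low in the control, and IGFBP3 is high in the control.

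Among the secreted proteins, CCN1, a matricellular protein that binds integrins, was high in both treated groups. Its log2 level was 10.31 and 10.44 with EGF plus gefitinib, 9.88 and 9.99 with EGF, and 8.29 and 8.64 in the control. All arrays of both treated groups lay above both control arrays. EGF raised CCN1 by 1.47 ± 0.19 log2 units (limma estimate ± SE with 2 arrays in each group, adjusted p = 0.00514). With EGF plus gefitinib it stood 1.91 ± 0.19 above the control (adjusted p = 0.00915), a 3.76-fold difference. The difference between EGF plus gefitinib and EGF was 0.45 ± 0.19 and did not pass the test (adjusted p = 0.168). Its 95% interval ran from −0.01 to 0.90, while the interval against the control ran from 1.46 to 2.37. The call against the control was lost without control 1, control 2 or EGF plus gefitinib 2 (1.74 to 2.08, adjusted p from 0.0606 to 0.0812), and the call for EGF was kept without any of the 6 arrays.

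CCN2, also called connective tissue growth factor, is the relative of CCN1 most often used as a readout of YAP. It measured 5.77 and 5.09 with EGF plus gefitinib, 5.55 and 5.05 with EGF, and 4.97 and 5.01 in the control. All 6 values lay below the background limit, so neither a level nor a fold can be given for CCN2 in these cells. Its fitted difference for EGF against control was 0.31 ± 0.28 (limma, adjusted p = 0.545), and for EGF plus gefitinib against EGF it was 0.13 ± 0.28 (adjusted p = 0.804). Of the other CCN genes, CCN4, CCN5 and CCN6 also lay below the limit on all arrays. CCN3 was above it with EGF plus gefitinib (8.50 and 7.79), against 6.78 and 6.54 with EGF and 5.75 and 6.15 in the control. It was at least 1.7-fold higher than with EGF (limma, adjusted p = 0.0108) and at least 1.81-fold higher than in the control (adjusted p = 0.0152). The call against EGF was lost without EGF 2 (adjusted p = 0.0697), and that against the control without any array of those 2 groups (adjusted p from 0.0598 to 0.0989).

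IGFBP3, which binds insulin-like growth factors outside the cell, was a bright member. It measured 15.24 and 15.33 with EGF plus gefitinib, 14.88 and 14.65 with EGF, and 16.02 and 16.06 in the control. The 3 groups did not overlap, with the control highest and EGF lowest. EGF lowered IGFBP3 by 1.27 on the log2 scale (−1.27 ± 0.18, limma, adjusted p = 0.00611), a call lost without EGF 2 (−1.16, adjusted p = 0.0532). The difference of EGF plus gefitinib from EGF was 0.52 ± 0.18 (adjusted p = 0.0872) and from the control −0.75 ± 0.18 (adjusted p = 0.0662). None of the other 6 insulin-like growth factor binding proteins was called in any comparison. At an unadjusted p under 0.05, 1 of them differed in each. Over all 21448 probe sets 5677 (EGF against control), 6732 (EGF plus gefitinib against EGF) and 4457 (EGF plus gefitinib against control) did. IGFBP6 (11.78 to 12.19) and IGFBP7 (14.44 to 14.97) were above the limit on all arrays, and the other 4 were below it on all. LUM and DCN, 2 of the 6 measured fibroblast markers, were also called lower for EGF against control, and 0 higher. Over all probe sets 5.3% were called lower. DCN lay below the limit on all arrays, so of these 2 only LUM had a measured fall (mean 9.48 in the control, 8.14 with EGF). All arrays hold A431 cells, and the part of these markers in the IGFBP3 difference was not tested. The summed level of the 6 markers was 9.10 to 9.53 with EGF plus gefitinib, 8.94 to 9.26 with EGF and 10.01 to 10.11 in the control, with COL1A1, DCN, PDGFRA and PDGFRB below the limit on all arrays.

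Among the membrane proteins, F3 had the largest difference between EGF and control of the 9 measured members. F3 is tissue factor, the cell-surface receptor that starts blood coagulation. It measured 14.05 and 13.87 with EGF plus gefitinib, 15.60 and 15.66 with EGF, and 12.79 and 12.85 in the control. The groups were well apart, with EGF highest and the control lowest. EGF raised F3 by 2.81 ± 0.17 log2 units (limma, adjusted p = 0.00043). With gefitinib it fell by 1.67 on the log2 scale (−1.67 ± 0.17, adjusted p = 0.00123), a 3.18-fold difference. It then still stood 1.14 ± 0.17 above the control (2.2-fold, adjusted p = 0.0228). That remaining difference was between 1.05 and 1.23 in all the alternatives that lost its call, but it was not called without any 1 of the 6 arrays, with only the groups compared in the fit or with the replicate block (adjusted p from 0.0503 to 0.134). The calls for EGF and for gefitinib were kept without any 1 of the 6 arrays. Of the 7 epithelial markers, the keratins KRT8 and KRT18 were called in the same directions as F3 in both comparisons, 2.14-fold and 2.50-fold higher with EGF than in the control (limma, adjusted p = 0.00968 and 0.00526) and 2.83-fold lower each with EGF plus gefitinib than with EGF (adjusted p = 0.00187 and 0.0019). Their part in the F3 result was not tested. Of the 7 markers, 28.6% were called for EGF against control and 42.9% for EGF plus gefitinib against EGF. Beside these stood 11.9% and 18.7% of all probe sets, and 22.5% and 34.9% of those with a mean above the mean limit. The summed level of the 7 markers was 17.79 to 17.87 with EGF plus gefitinib, 18.12 to 18.13 with EGF and 17.70 to 17.72 in the control. EGFR was 1.82-fold higher with EGF plus gefitinib than with EGF (limma, adjusted p = 0.0125). TFPI, an inhibitor of tissue factor, measured 10.23 and 9.98 with EGF plus gefitinib, 9.48 and 9.38 with EGF, and 10.06 and 9.94 in the control. It was 1.6-fold higher with EGF plus gefitinib than with EGF (limma, adjusted p = 0.0412), a call lost without any 1 of the 6 arrays and in 3 other alternatives (adjusted p from 0.0543 to 0.179). TFPI2 lay below the limit on all arrays.

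CRIM1, a transmembrane protein that binds bone morphogenetic proteins, measured 11.60 and 12.26 with EGF plus gefitinib, 11.51 and 11.03 with EGF, and 10.74 and 10.70 in the control. Every treated array was above both control arrays. Its arrays spread widely in the treated groups, with an SD of 0.46 for EGF plus gefitinib and 0.34 for EGF. No comparison passed the test in the main fit. The differences were 0.55 ± 0.27 for EGF against control (limma, adjusted p = 0.258), 0.66 ± 0.27 for EGF plus gefitinib against EGF (adjusted p = 0.145) and 1.21 ± 0.27 for EGF plus gefitinib against control (adjusted p = 0.0586). Both comparisons with EGF plus gefitinib were called when dim probe sets were left out and when the prior had a trend.

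ANKRD1, a nuclear and sarcomeric ankyrin repeat protein and a strongly induced YAP target in many cell types, was not measurable in these cells. Its values were 4.08 and 3.42 with EGF plus gefitinib, 3.86 and 3.13 with EGF, and 3.33 and 3.48 in the control. All lay far below the background limit. The fitted differences were 0.09 ± 0.31 for EGF against control (limma, adjusted p = 0.897) and 0.26 ± 0.31 for EGF plus gefitinib against EGF (adjusted p = 0.634), and no fold is given.

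The members that act back on the Hippo cascade differed among themselves. AJUBA, a LIM domain scaffold that binds and restrains the LATS kinases, measured 12.01 and 11.72 with EGF plus gefitinib, 10.40 and 10.14 with EGF, and 11.35 and 11.32 in the control. EGF arrays were lowest and EGF plus gefitinib arrays highest, with no overlap. EGF lowered AJUBA by 1.06 on the log2 scale (−1.06 ± 0.19, limma, adjusted p = 0.0156). The cells with EGF plus gefitinib were 3.01-fold above those with EGF (1.59 ± 0.19, adjusted p = 0.00217). Their difference from the control, 0.53 ± 0.19, did not pass the test (adjusted p = 0.18). The call of the fall with EGF needed all 4 EGF and control arrays, since it was lost when any of them was omitted (−1.19 to −0.94, adjusted p from 0.0605 to 0.102), whereas the rise with gefitinib was kept without any 1 of the 6 arrays. Of the 5 endothelial markers, CDH5 was called in the same comparisons and directions, with a mean of 7.59 with EGF plus gefitinib, 5.03 with EGF and 7.25 in the control. No other of the 5 was called, so the share was 20% in both comparisons, beside 11.9% and 18.7% of all probe sets. CDH5 lay above the limit on 1 of 2 EGF plus gefitinib arrays, 1 of 2 control arrays and 0 EGF arrays. The summed level of the list was 8.08 to 8.20 with EGF plus gefitinib, 6.55 to 6.83 with EGF and 7.58 to 7.93 in the control. PECAM1, VWF, KDR and TEK were below the limit on all arrays. All arrays hold A431 cells, and the part of these markers in the AJUBA result was not tested. Of 5 other zyxin and AJUBA family LIM proteins none was called in any comparison. Beside 5677, 6732 and 4457 of the 21448 probe sets, 0, 2 and 1 of this list had an unadjusted p under 0.05. Those counts are for EGF against control, EGF plus gefitinib against EGF and EGF plus gefitinib against control, in that order. The focal adhesion proteins ZYX (9.63 to 10.44) and LPP (10.22 to 11.10) were the bright ones of that list.

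LATS2, the kinase that phosphorylates YAP and TAZ, was dim. It measured 7.99 and 7.81 with EGF plus gefitinib, 7.17 and 7.37 with EGF, and 7.17 and 6.54 in the control. Both arrays with EGF plus gefitinib lay above the background limit, but only 1 of the EGF arrays and 1 of the control arrays did. EGF against control gave 0.42 ± 0.25 (limma, adjusted p = 0.342), EGF plus gefitinib against EGF 0.62 ± 0.25 (adjusted p = 0.13) and EGF plus gefitinib against control 1.04 ± 0.25 (adjusted p = 0.0659). AMOTL1, an angiomotin relative that binds YAP at cell junctions, was the steadiest bright member. It measured 10.21 and 10.35 with EGF plus gefitinib, 10.01 and 10.02 with EGF, and 9.88 and 10.01 in the control. Its differences were 0.07, 0.27 and 0.33 (SE 0.17 each) for EGF against control, EGF plus gefitinib against EGF and EGF plus gefitinib against control, with limma adjusted p-values of 0.859, 0.352 and 0.331. The 95% interval for EGF against control ran from −0.34 to 0.47.

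**Figure D3:**
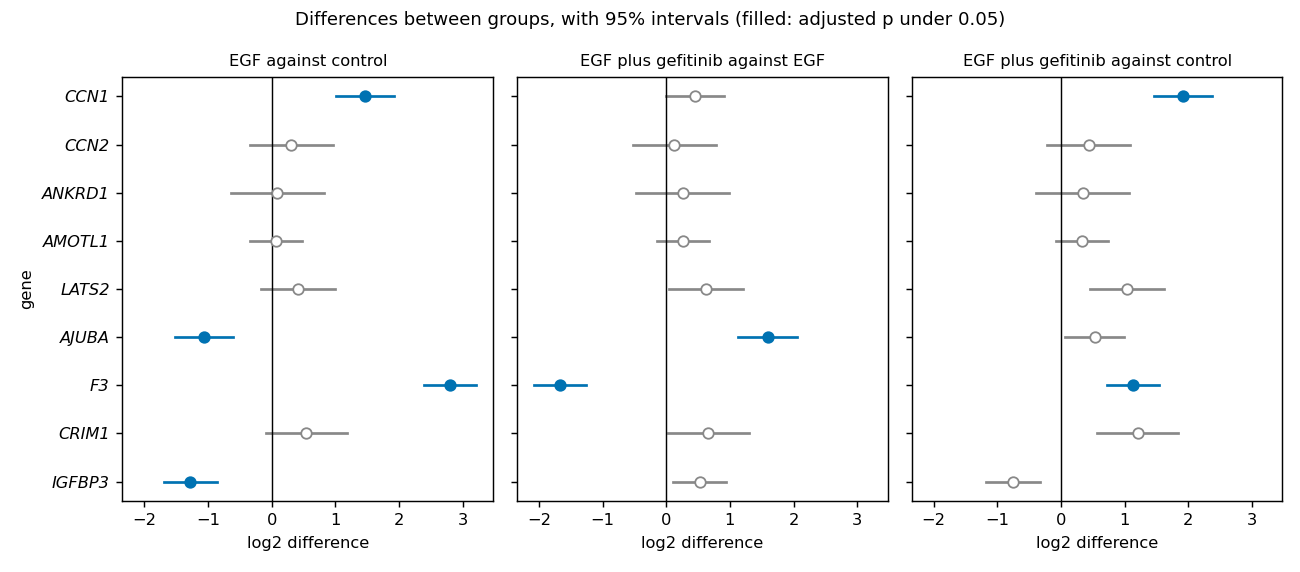
Log2 differences of the 9 members in the 3 comparisons (points) with the 95% intervals of the limma fit, which are not adjusted for the number of probe sets. Filled points have an adjusted p under 0.05. F3 lies at 2.81, −1.67 and 1.14, CCN1 is filled in both comparisons with the control, and AJUBA lies at −1.06 for EGF against control and 1.59 for EGF plus gefitinib against EGF.

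Genes of like pattern were looked up for the 4 called members and CCN2, by the smallest root mean square difference of centred log2 values over the 6 arrays, among 7932 named genes above the limit in at least 1 group (7933 for CCN2). Nearest to CCN1 were CD55, a complement inhibitor (0.10), the phosphate transporter SLC20A1 and LRATD2 (0.22 each). Nearest to F3 were OSMR, the oncostatin M receptor (0.15), HBEGF, an EGFR ligand, and IL1A, a cytokine (0.21 each). IL1A, for example, averaged 8.35 with EGF plus gefitinib, 10.42 with EGF and 7.33 in the control. Nearest to AJUBA were CCNG1, the receptor FGFR2 and RABGAP1L (0.10 to 0.11). Nearest to IGFBP3 were the fucosyltransferase FUT8, PSIP1 and BCKDHB (0.08 to 0.09). For CCN2 the search gave RAP1GAP2, RHOT1 and BBS7 (0.07 to 0.11), but as all its values were in the background range this likeness has no measured level behind it. No gene was among the nearest 3 of more than 1 member.

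**Figure D4:**
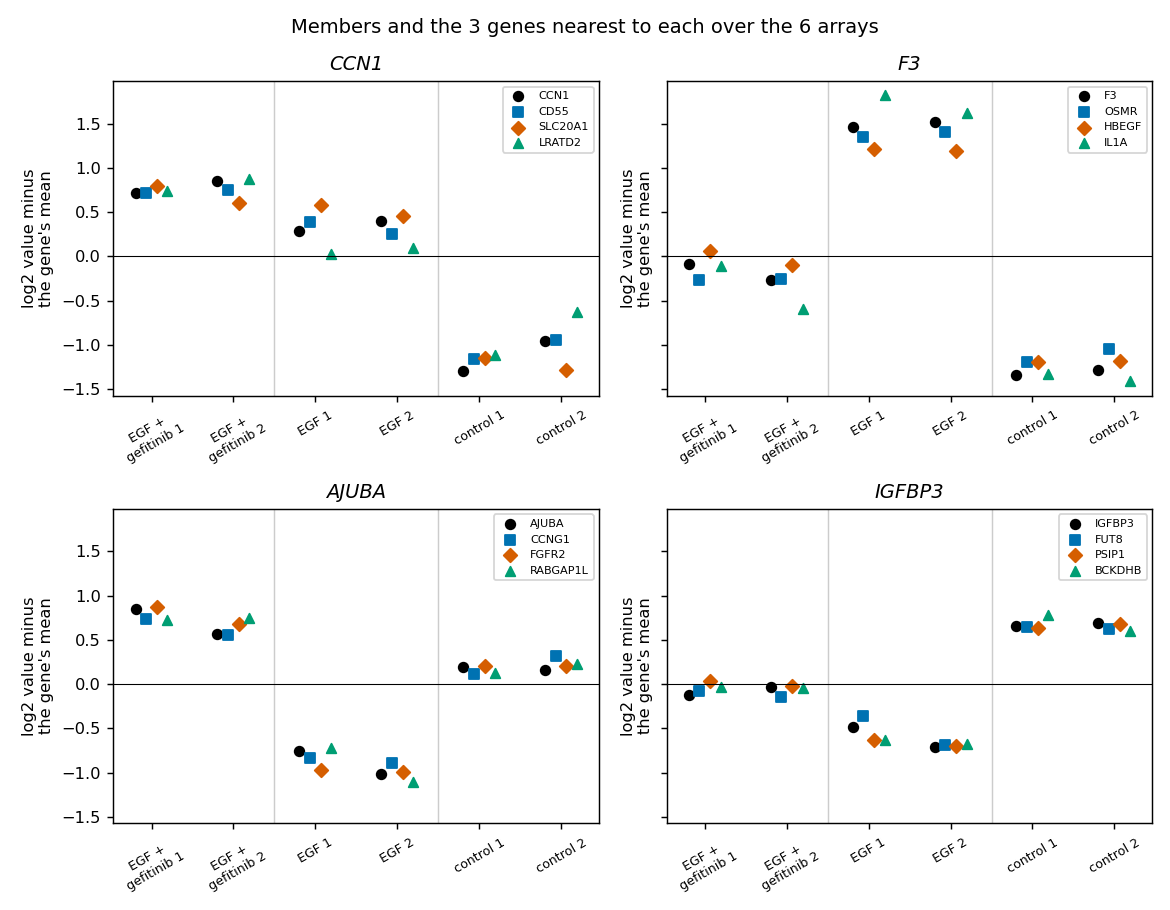
Log2 values minus each gene's own mean over the 6 arrays for CCN1, F3, AJUBA and IGFBP3 (black circles) and the 3 genes nearest to each (colours), by array. In the F3 panel all 4 genes are highest on the EGF arrays, and in the AJUBA panel all 4 are lowest there. The near genes were picked on these same arrays, so the shared pattern follows from the choice.

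Among the coactivators and DNA-binding factors of the pathway, WWTR1 and TEAD4 rose with EGF and were lower with gefitinib. WWTR1, which encodes TAZ, measured 10.04 and 9.56 with EGF plus gefitinib, 10.69 and 10.78 with EGF, and 9.73 and 9.81 in the control. It rose 1.95-fold with EGF (limma, adjusted p = 0.0284) and was 1.91-fold lower with EGF plus gefitinib than with EGF (adjusted p = 0.022). TEAD4 measured 6.66 and 6.76 with EGF plus gefitinib, 8.68 and 8.25 with EGF, and 6.78 and 7.08 in the control, so only the EGF arrays were above the limit. It was at least 2.25-fold higher with EGF than in the control (limma, adjusted p = 0.0065) and at least 1.99-fold lower with EGF plus gefitinib than with EGF (adjusted p = 0.00235). YAP1 itself measured 8.39 and 8.32 with EGF plus gefitinib, 8.93 and 8.91 with EGF, and 8.36 and 8.25 in the control. Its differences, 0.62 ± 0.17 for EGF and −0.56 ± 0.17 for gefitinib, did not pass the test (limma, adjusted p = 0.0592 and 0.0594). TEAD1 was 1.52-fold higher with EGF plus gefitinib than with EGF (limma, adjusted p = 0.0492) and 1.80-fold higher than in the control (adjusted p = 0.0442). TEAD2 and TEAD3 lay below the limit on all arrays.

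The VGLL genes encode cofactors that bind TEAD factors. VGLL1 measured 11.62 and 11.26 with EGF plus gefitinib, 11.26 and 11.17 with EGF, and 13.38 and 13.37 in the control. It fell 4.48-fold with EGF (limma, adjusted p = 0.00142) and was 3.84-fold lower with EGF plus gefitinib than in the control (adjusted p = 0.0091). The treated groups differed by 0.22 ± 0.19 (adjusted p = 0.495). VGLL3 was 1.77-fold higher with EGF plus gefitinib than with EGF (limma, adjusted p = 0.0155). Of the 10 coactivators and factors, 2 rose and 1 fell for EGF against control, 2 rose and 2 fell for EGF plus gefitinib against EGF, and 1 rose and 1 fell for EGF plus gefitinib against control. These are 3, 4 and 2 genes called, beside 11.9%, 18.7% and 3.89% of all probe sets and 22.5%, 34.9% and 7.17% of the brighter ones. This list, too, was chosen with earlier results of these data known, so the counts are no test. Without single arrays the calls of WWTR1 were lost in 4 fits for EGF and 3 for gefitinib (adjusted p from 0.08 to 0.14), those of VGLL3 in 3 (0.0591 to 0.0903), that of VGLL1 against the control in 3 (0.0667 to 0.0812) and both of TEAD1 in all 6. Both TEAD1 calls were also lost with only the compared groups in the fit and with the replicate block, and that against EGF with median centring (adjusted p from 0.074 to 0.207 over these). The calls for EGF on VGLL1 and for EGF and gefitinib on TEAD4 were kept in all 6.

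A further 12 of 14 listed YAP targets had a probe set, and like the members they moved in both directions. For EGF against control 3 rose and 3 fell, for EGF plus gefitinib against EGF 5 rose and 2 fell, and for EGF plus gefitinib against control 3 rose and 0 fell. Called were 6, 7 and 3 of 12, beside 11.9%, 18.7% and 3.89% of all probe sets and 22.5%, 34.9% and 7.17% of brighter ones. The list was chosen with earlier results of these data known, so these shares are descriptions and no test. The median log2 differences of the 12 genes were 0.12, 0.37 and 0.55. RBMS3, 1 of the 3 falls with EGF and 1 of the 5 rises with gefitinib, lay above the limit on 1 EGF plus gefitinib array alone. Its call for EGF was also lost with only the compared groups in the fit and with the replicate block. NT5E, an enzyme that makes extracellular adenosine, measured 11.31 and 11.06 with EGF plus gefitinib, 11.84 and 12.18 with EGF, and 10.12 and 9.80 in the control, and rose 4.13-fold with EGF (limma, adjusted p = 0.00254). CCDC80, a secreted matrix protein, measured 12.45 and 13.04 with EGF plus gefitinib, 11.05 on both EGF arrays, and 13.31 and 13.48 in the control, and fell 5.06-fold with EGF (adjusted p = 0.0019). It was 3.24-fold higher with EGF plus gefitinib than with EGF (limma, adjusted p = 0.00331). PTPN14, a phosphatase that binds YAP, measured 10.41 and 11.20 with EGF plus gefitinib, 8.55 and 8.47 with EGF, and 9.80 and 9.82 in the control. It was 4.90-fold higher with EGF plus gefitinib than with EGF (limma, adjusted p = 0.00186) and fell 2.46-fold with EGF (adjusted p = 0.0231), a call lost without any EGF or control array (adjusted p from 0.0976 to 0.115).

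MYOF, a membrane repair protein, and GADD45A, a stress-induced growth arrest protein, were 3.08-fold and 3.13-fold higher with EGF plus gefitinib than with EGF (limma, adjusted p = 0.00177 and 0.00193). Both were also higher than in the control, 2.18-fold and 3.38-fold (adjusted p = 0.0274 and 0.0111). NUAK2, a kinase, was above the limit on the EGF arrays alone (7.48 and 7.37), and its rise with EGF was at least 1.10-fold (adjusted p = 0.00422). It was also called lower with EGF plus gefitinib than with EGF (limma, adjusted p = 0.00296), but was too dim there for a fold. Without single arrays the counts of the list were 2 to 3 higher and 1 to 2 lower for EGF against control, 4 to 5 higher and 1 lower for EGF plus gefitinib against EGF, and 0 to 1 higher for EGF plus gefitinib against control. The calls of MYOF and NT5E against the control were lost without any 1 of the 6 arrays, as was that of NT5E for gefitinib (adjusted p up to 0.196 over all alternatives), and GADD45A against the control was lost in 4 such fits (0.0553 to 0.0849).

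Of 18 measured Hippo kinases and upstream regulators, 5 rose and 0 fell for EGF against control, or 27.8%, beside 11.9% of all probe sets and 22.5% of those with a mean above the mean limit, and the median log2 difference was 0.49. As with the other lists, the genes were chosen with earlier results of these data known, so the shares are no test. SAV1, the scaffold of the STK3 and STK4 kinases, measured 10.32 and 10.56 with EGF plus gefitinib, 10.52 and 10.53 with EGF, and 9.43 and 9.27 in the control. It rose 2.26-fold with EGF (limma, adjusted p = 0.00878). MAP4K4, a kinase that can act on LATS, rose 2.14-fold (adjusted p = 0.0116), NF2, the membrane scaffold merlin, 1.67-fold (adjusted p = 0.0351), and LATS1 1.71-fold (adjusted p = 0.0368). For EGF plus gefitinib against EGF 1 rose and 2 fell, a share of 16.7% beside 18.7% of all probe sets and 34.9% of the brighter ones. The giant cadherin FAT1 was 2.80-fold higher with EGF plus gefitinib than with EGF (limma, adjusted p = 0.00703), NF2 1.59-fold lower (adjusted p = 0.0342) and the scaffold WWC1 at least 1.31-fold lower (adjusted p = 0.0132). The NF2 call was lost without any 1 of the 6 arrays, with only the compared groups in the fit and with the replicate block (adjusted p from 0.0565 to 0.171). That of WWC1 was lost without EGF 1 or EGF plus gefitinib 1 (0.0678 to 0.0814). Of the 18 genes, SAV1 alone was called for EGF plus gefitinib against control (5.56%, beside 3.89% of all probe sets and 7.17% of the brighter ones). It was 2.13-fold higher (limma, adjusted p = 0.028). This call too was lost without any 1 of the 6 arrays, with only the compared groups and with the replicate block (adjusted p from 0.0591 to 0.155). The count for EGF against control was 0 to 3 without single arrays, with SAV1, MAP4K4, NF2 and LATS1 each lost in 3 to 6 of those fits (adjusted p from 0.0507 to 0.193 over all alternatives).

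**Figure D5:**
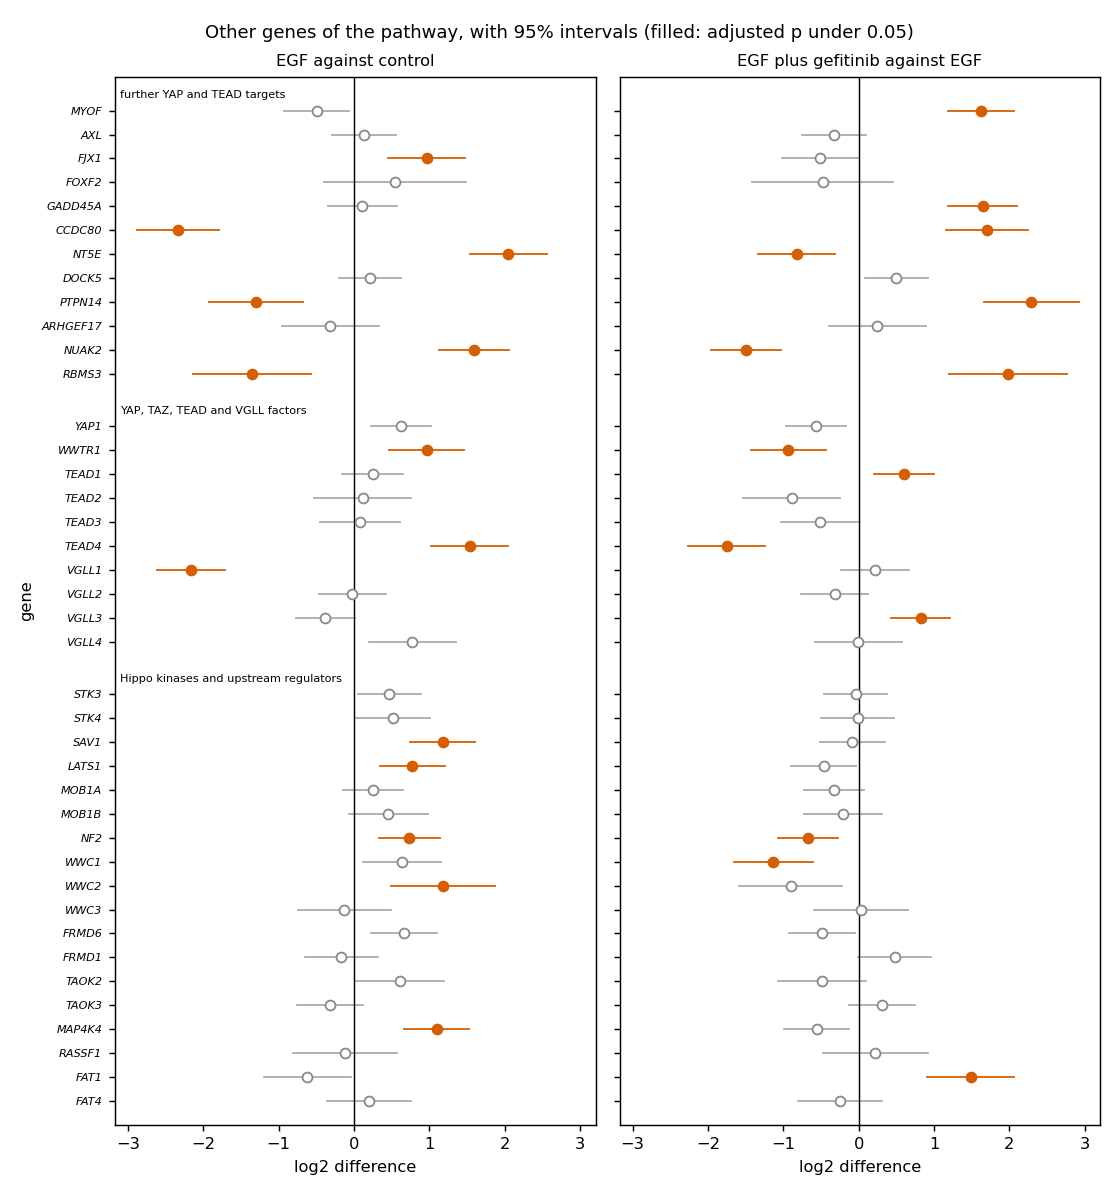
Log2 differences (points) with 95% intervals of the limma fit for the other genes of the pathway, for EGF against control (left) and EGF plus gefitinib against EGF (right). Filled points have an adjusted p under 0.05. In the lowest block all 5 filled genes on the left lie above 0, while the further targets in the top block have 3 filled on each side of 0. RBMS3, 1 of those 3 below 0, lay at or below the background limit in both groups compared there.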

How the data were processed

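A431 RNA was hybridised to 6 single-colour arrays, 1 per sample. Transcriptome Analysis Console is the tool listed in the submitters' processing notes for the log2 values that the authors deposited. Which version ran, and how the arrays were corrected for background and normalized, was not given in the sources used here. A range of 1.58 to 18.9 marks these values as log2. No step was applied to them before testing.

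The 2903 control probe sets were left out, and the 21448 transcript probe sets were tested with no filter. The platform annotation named 1 gene for 17709 of them, and the other 3739 are unnamed here. The brightest probe set stood for a gene. The background limit of an array was the 95th percentile of its negative controls. Where the dimmer group lay at or below its limit on both arrays, a fold was computed against the higher of limit and value and written "at least". The number of arrays limits the precision.

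All 6 arrays entered 1 limma 3.58.1 fit (R 4.3.3) with 3 group means, 3 residual degrees of freedom and 4.22 from the prior. P-values are two-sided, adjusted by Benjamini-Hochberg over all 21448 probe sets and called under 0.05. The fit was tested on simulated data. Members and lists were chosen with earlier results of these data known. All members are named, as are YAP1, WWTR1, TEAD1 and TEAD4, up to 4 called genes per list and comparison, and the 3 nearest genes of each called member and CCN2. Alternatives were other scalings, a filter on dim probe sets, a prior with a trend, a fit of the compared groups alone, a replicate block, gene means over probe sets and leaving out each array.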

Additional observations from a re-analysis of the deposited data

How the results depend on the processing

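Of the members called for EGF against control, 2 higher and 2 lower, and for EGF plus gefitinib against EGF, 1 higher and 1 lower, the counts were the same under quantile normalization, median centring, the fit of the compared groups alone, the replicate block and gene means over probe sets. Leaving out dim probe sets gave 5 higher for EGF plus gefitinib against EGF, and 5 higher and 1 lower for EGF plus gefitinib against control. A prior with a trend gave 3 higher, and 5 higher and 1 lower. The added calls against EGF were CRIM1 and IGFBP3 in both settings, and CCN1 and LATS2 without dim probe sets alone. Against the control they were LATS2, AJUBA and CRIM1 higher and IGFBP3 lower in both settings. For EGF plus gefitinib against control, the main count of 2 higher became 1 in the fit of the compared groups alone and 1 with the replicate block. Without single arrays there were 0 to 2 lower for EGF against control and 0 to 1 higher for EGF plus gefitinib against control, while the other counts of members stayed at their value. No member's direction was reversed where it was called.

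Over all probe sets, 2554, 4005 and 834 were called in the order EGF against control, EGF plus gefitinib against EGF, EGF plus gefitinib against control. Without dim probe sets the first became 3984 and the third 2610, with a trend 4237 and 2770. The third was 247 in the fit of the compared groups alone. Without single arrays the counts were 726 to 2506, 1889 to 3406 and 0 to 247. In the fits that called 0, 3280 probe sets had an unadjusted limma p under 0.05 without control 1 and 3810 without EGF plus gefitinib 2. The causes were not tested, beyond the fewer samples in those fits.

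The labels do not say whether the replicate numbers pair the samples, and the main fit used no pairing. Deviations of same-numbered arrays from their group means correlated at −0.04 to 0.02 between groups. With 2 arrays per group and most probe sets below the limit, this cannot show whether same-numbered arrays were handled together. The replicate block gave 2040, 3489 and 333 calls. Signal near background limits CCN2 and ANKRD1, for which no fold can be given, and LATS2, which was above the limit on 4 of 6 arrays.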
